A study of Mus musculus with 23 samples.

Results

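The 9 genes described here mark pyramidal neurons of the hippocampal CA fields in the mouse: Wfs1, Fibcd1, Pou3f1, Mpped1 and Man1a for CA1, and Amigo2, Rgs14, Pcp4 and Bok for CA2 and CA3. They are known subfield markers, listed with earlier results of these data known, and are 9 of the 52636 genes counted. All 9 were matched by symbol to an Ensembl identifier and all 9 passed the filter on low counts. The series compared RNA from whole hippocampus of wild-type (WT) and P301S mice kept in normoxia or under chronic intermittent hypoxia. There were 6 libraries each of WT in normoxia, WT in hypoxia and P301S in hypoxia, and 5 of P301S in normoxia. The mice had a mixed C57Bl6 and Balbc background. P301S is a mutation of the microtubule-associated protein tau found in inherited frontotemporal dementia. The labels do not name the transgenic line, its promoter, the age or sex of the mice or the schedule of hypoxia, and do not state whether libraries were made from separate mice. In the titles, 5 of the 6 WT normoxia libraries share 1 number and the 6 WT hypoxia libraries share 2 others, while each P301S library has its own. What these numbers stand for is not stated, so a shared origin of WT libraries enters the genotype comparisons as well as that of hypoxia in WT mice. The p-values therefore rest on library-to-library spread, which may be technical in part.

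The hippocampal circuit runs from dentate granule cells to CA3, and from CA3 to CA1, whose pyramidal cells send the main output. CA2 is a small field between CA3 and CA1 that is known for its part in social memory and for weak plasticity at its CA3 inputs. The marker genes have unlike jobs. Wfs1 encodes wolframin, a membrane protein of the endoplasmic reticulum (ER), Fibcd1 a receptor for acetylated sugars, Pou3f1 a POU-domain transcription factor, Mpped1 a metallophosphoesterase and Man1a a Golgi mannosidase that trims N-glycans. Amigo2 encodes a leucine-rich repeat adhesion protein, Rgs14 a scaffold that binds G proteins and limits plasticity in CA2, Pcp4 a small regulator of calmodulin and Bok a member of the BCL2 family related to Bax and Bak1. In bulk tissue, fewer cells of a type and less RNA per cell cannot be told apart.

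Each library had between 19134422 and 25820145 counts in genes. Levels are given as CPM, counts scaled to a common library size, with library totals adjusted by the trimmed mean of M-values (TMM), with scaling factors of 0.961 to 1.03. Group means of the mouse Mapt gene were 679 to 713 CPM, and the pseudogene RNA Lamr1-ps1 had no count in the 12 WT libraries and 2.96 ± 0.914 CPM (SD, n = 5) in P301S normoxia and 3.0 ± 0.53 CPM (SD, n = 6) in P301S hypoxia, so the libraries followed their genotype labels on that RNA. General pyramidal markers were abundant in every library, at a summed 6824 to 9377 CPM over 10 genes, and 12 dentate granule markers summed to 761 to 1247 CPM. Markers of adjoining tissue were also present: 13 thalamus and habenula markers summed to 132 to 366.6 CPM, 9 striatal markers to 54.1 to 122.9 CPM, and 15 choroid plexus markers to between 71 and 3777 CPM. WT normoxia replicate 4 stood apart from its group, with the lowest thalamic, striatal and choroid plexus marker scores in it.

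The windows before the transcription start are shown for 3 markers, Bok and Amigo2 because they carry the clearest differences below, and Fibcd1 as a contrast in content. Each line gives the 250 bases before the RefSeq start on the gene's own strand (GRCm38.p6). Bok lies at chr1:93685325-93685574 on the plus strand, Amigo2 at chr15:97247288-97247537 on the minus strand and Fibcd1 at chr2:31846006-31846255 on the minus strand. Capitals mark any match, on either strand, to ACGTG or GCGTG, the core of the hypoxia response element, or to TGACG, a part of the cAMP response element.
Bok: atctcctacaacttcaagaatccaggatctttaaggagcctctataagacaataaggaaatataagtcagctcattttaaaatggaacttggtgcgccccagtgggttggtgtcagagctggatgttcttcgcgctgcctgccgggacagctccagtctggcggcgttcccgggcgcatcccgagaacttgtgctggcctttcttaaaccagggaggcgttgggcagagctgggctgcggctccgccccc
Amigo2: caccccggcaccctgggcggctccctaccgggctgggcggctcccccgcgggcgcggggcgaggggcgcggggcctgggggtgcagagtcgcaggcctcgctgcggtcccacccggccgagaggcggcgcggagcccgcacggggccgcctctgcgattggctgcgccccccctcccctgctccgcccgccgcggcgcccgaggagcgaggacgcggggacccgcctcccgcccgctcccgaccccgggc
Fibcd1: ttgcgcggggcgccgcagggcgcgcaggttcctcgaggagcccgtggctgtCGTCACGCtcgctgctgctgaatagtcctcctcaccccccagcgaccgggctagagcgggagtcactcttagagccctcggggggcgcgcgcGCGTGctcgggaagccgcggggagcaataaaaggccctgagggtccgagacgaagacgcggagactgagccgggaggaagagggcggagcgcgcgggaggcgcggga
The Bok and Amigo2 windows held none of these letters, and the same held for the E-box CACGTG and for the ER stress element. The Fibcd1 window held 2 matches to GCGTG and 1 to TGACG, 2 of which overlap. Among all 32851 promoters of 300 bases in the table, 19.6% held ACGTG, 32.4% GCGTG, 20.8% TGACG, 7.15% CACGTG and 0.119% the ER stress element. Of the 7 markers with a window in the table, Pcp4 held 1 GCGTG, Man1a held 1 TGACG, and Wfs1 and both Mpped1 windows held none of the 5 motifs. A match is a run of letters and not a shown binding site. The windows differ widely in composition, from 84.0% G and C before Amigo2 to 55.2% before Bok and 46.8% before Pcp4.

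Levels between genes were compared per kilobase of exon. Mpped1 was highest at 63.4 ± 7.06 CPM per kilobase (SD, n = 23), followed by Wfs1 at 47.9 ± 9.08 and Fibcd1 at 33.6 ± 6.47. Bok at 21.5 ± 4.73 and Rgs14 at 20.7 ± 2.69 came next, and their order depended on the group. The mean of Bok was higher in WT normoxia (24.04 against 21.77) and in the hypoxia groups. It was lower in P301S normoxia (15.24 against 18.84). Pou3f1 at 9.48 ± 1.57, Amigo2 at 8.49 ± 1.48 and Man1a at 8.29 ± 1.02 had overlapping SDs, and differences between genes were not tested. The files count reads over whole gene bodies, introns included, and with gene-body length the order changed: Pou3f1 and Amigo2, which have almost no intron, became first and second at 9.48 and 8.35 CPM per kilobase, and Mpped1 seventh at 3.45.

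Pcp4 cannot be placed in that order. The gene is at 16:96467606-96525793 on the plus strand, and 99.6% of its body lies within Igsf5, a gene on the same strand that begins upstream of it. The counting dropped reads that fell on 2 genes, so Pcp4 counts come from reads that reach the last 213 bases of its 58188-base body, in its final exon. Each library had 138 to 311 such counts, or 5.79 to 16.1 CPM, for a gene known as a strong CA2 marker. Igsf5 itself was at 1.69 to 2.74 CPM as group means. The other markers had little overlap, with 9.43% of Pou3f1, 5.63% of Amigo2 and 1.13% of Man1a under another gene and none of the other 5.

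**Figure D1:**
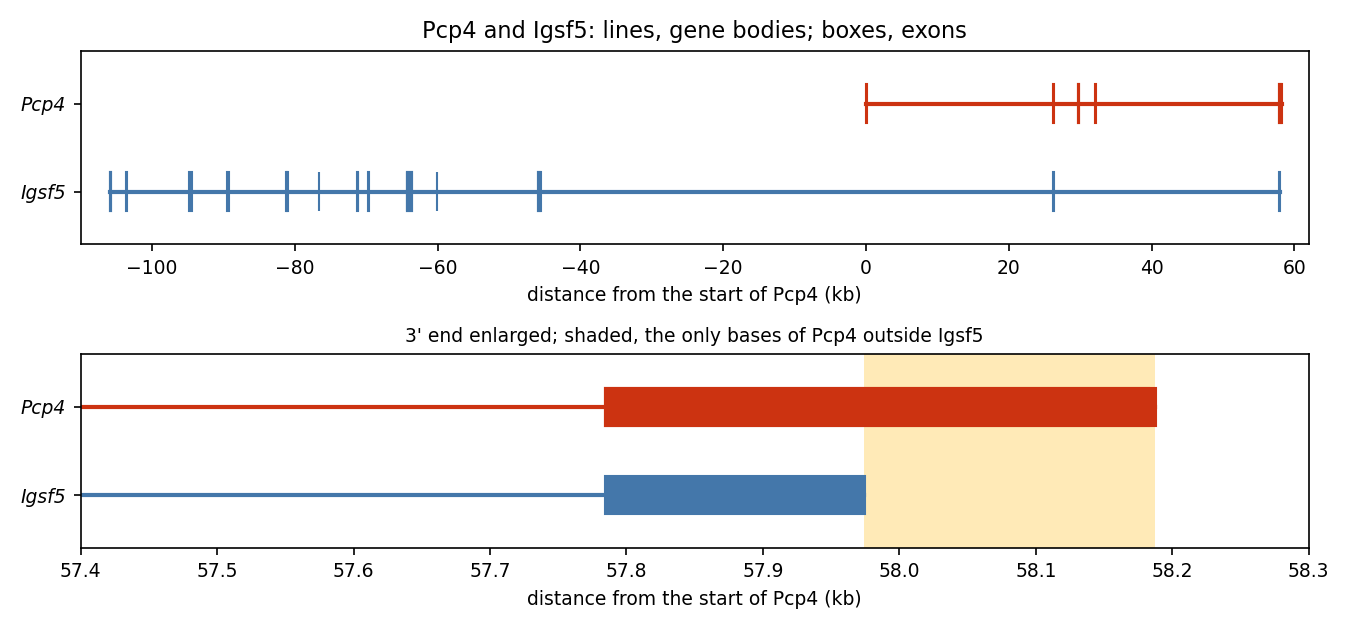
Map of Pcp4 and Igsf5 on their shared strand, as distance in kilobases from the start of Pcp4, with gene bodies as lines and exons as boxes. The lower panel enlarges the 3' end, where the shaded 213 bases are the stretch of Pcp4 that Igsf5 does not cover.

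In normoxia, P301S against WT asks what the tau genotype does to these markers without the oxygen challenge. Bok fell and none of the other 8 markers passed the test. Bok was at 28.9 to 49.2 CPM in WT normoxia, with a median of 46.9, and at 35.5, 26.4, 26.9, 24.96 and 26.4 CPM in P301S normoxia. All 5 P301S libraries were below the WT mean, and 4 of them were below every WT library. The groups overlapped because WT replicate 1 was low and P301S replicate 1 high for its group. Bok fell by 36.6%, a log2 fold change of -0.66 (SE 0.124, 95% confidence interval -0.91 to -0.40), with an adjusted p of 0.00509 in edgeR's quasi-likelihood test with Benjamini-Hochberg adjustment over 17788 genes. An exact permutation test on log2 CPM, two-sided, gave p = 0.00649, or 0.0779 adjusted over the 36 tests of 9 genes in 4 comparisons. That is 1 of 9 markers called, where 6.35% of all genes tested were called. The fall of Bok stayed called under each of the 15 alternative analyses, with log2 fold changes of -0.66 to -0.56, and without each of the 23 libraries in turn, with -0.76 to -0.63. One alternative kept only the 5 WT normoxia and 4 WT hypoxia libraries of the most frequent title number in each group, and gave Bok -0.64 (edgeR adjusted p = 0.0122).

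The same groups had unlike medians of choroid plexus and thalamic markers. Choroid plexus markers, of which 14 of 15 were tested and Kcnj13 was listed at 0, summed to 103.1 to 3777 CPM in WT normoxia (median 3227) and 608.1 to 3425 CPM in P301S normoxia (median 853.9). Thalamus and habenula markers, 11 of 13 tested, summed to 132 to 322.6 CPM (median 227.7) and 226.2 to 347.8 CPM (median 315.7). With either score as a covariate, Bok remained called. Single genes of neighbouring-tissue and interneuron lists were called in the same comparison, where 6.35% of all genes were. Of 11 tested thalamus and habenula markers Rora was higher (0.59), of 8 tested striatal markers Ppp1r1b was lower (-0.78), and of 14 neocortex and subiculum markers Fn1 (0.36) and Rasgrf2 (0.19) were higher. Of 11 tested GABAergic interneuron markers Npy (-0.51) and Sst (-0.42) were lower and Erbb4 (0.29) higher. By direction alone, thalamus and habenula markers had 10 positive and 1 negative (median 0.32), and striatal markers 2 and 6 (median -0.12). Neocortex and subiculum markers had 8 and 6 (median 0.10), and GABAergic interneuron markers 6 and 5 (median 0.01). The part of these tissues in the marker differences was not tested beyond the scores used as covariates.

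Among the CA1 markers in normoxia, Fibcd1 was nearest to a call. It was at 144.8 to 261.2 CPM in WT normoxia (median 173.4) and at 122, 141, 159, 131 and 141 CPM in P301S normoxia, with a log2 fold change of -0.40 (SE 0.136, edgeR adjusted p = 0.0829). The highest WT value came from replicate 4. Fibcd1 passed the threshold with DESeq2 (adjusted p = 0.0358), without WT normoxia replicate 1 (edgeR adjusted p = 0.0374) and without P301S hypoxia replicate 5 (edgeR adjusted p = 0.0456). It shrank to -0.23 with the thalamus and habenula score as a covariate (edgeR adjusted p = 0.273) and to -0.26 with the neocortex and subiculum score. Wfs1 was at 201, 209, 170, 206 and 166 CPM in P301S normoxia against 78.5 to 196.3 CPM in WT, with a log2 fold change of 0.33 (SE 0.160, edgeR adjusted p = 0.23). Without WT normoxia replicate 4, which gave the value of 78.5 CPM, this was 0.19 in log2. Mpped1 and Man1a had log2 fold changes of -0.02 and -0.04, and Pou3f1 one of -0.19. Of the CA2 and CA3 markers, Amigo2 and Rgs14 both had log2 fold changes of -0.21, with edgeR adjusted p of 0.254 and 0.199. The 95% intervals allow a change of -0.23 to 0.18 in log2 for Mpped1 and of -0.45 to 0.39 for Pcp4.

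**Figure D2:**
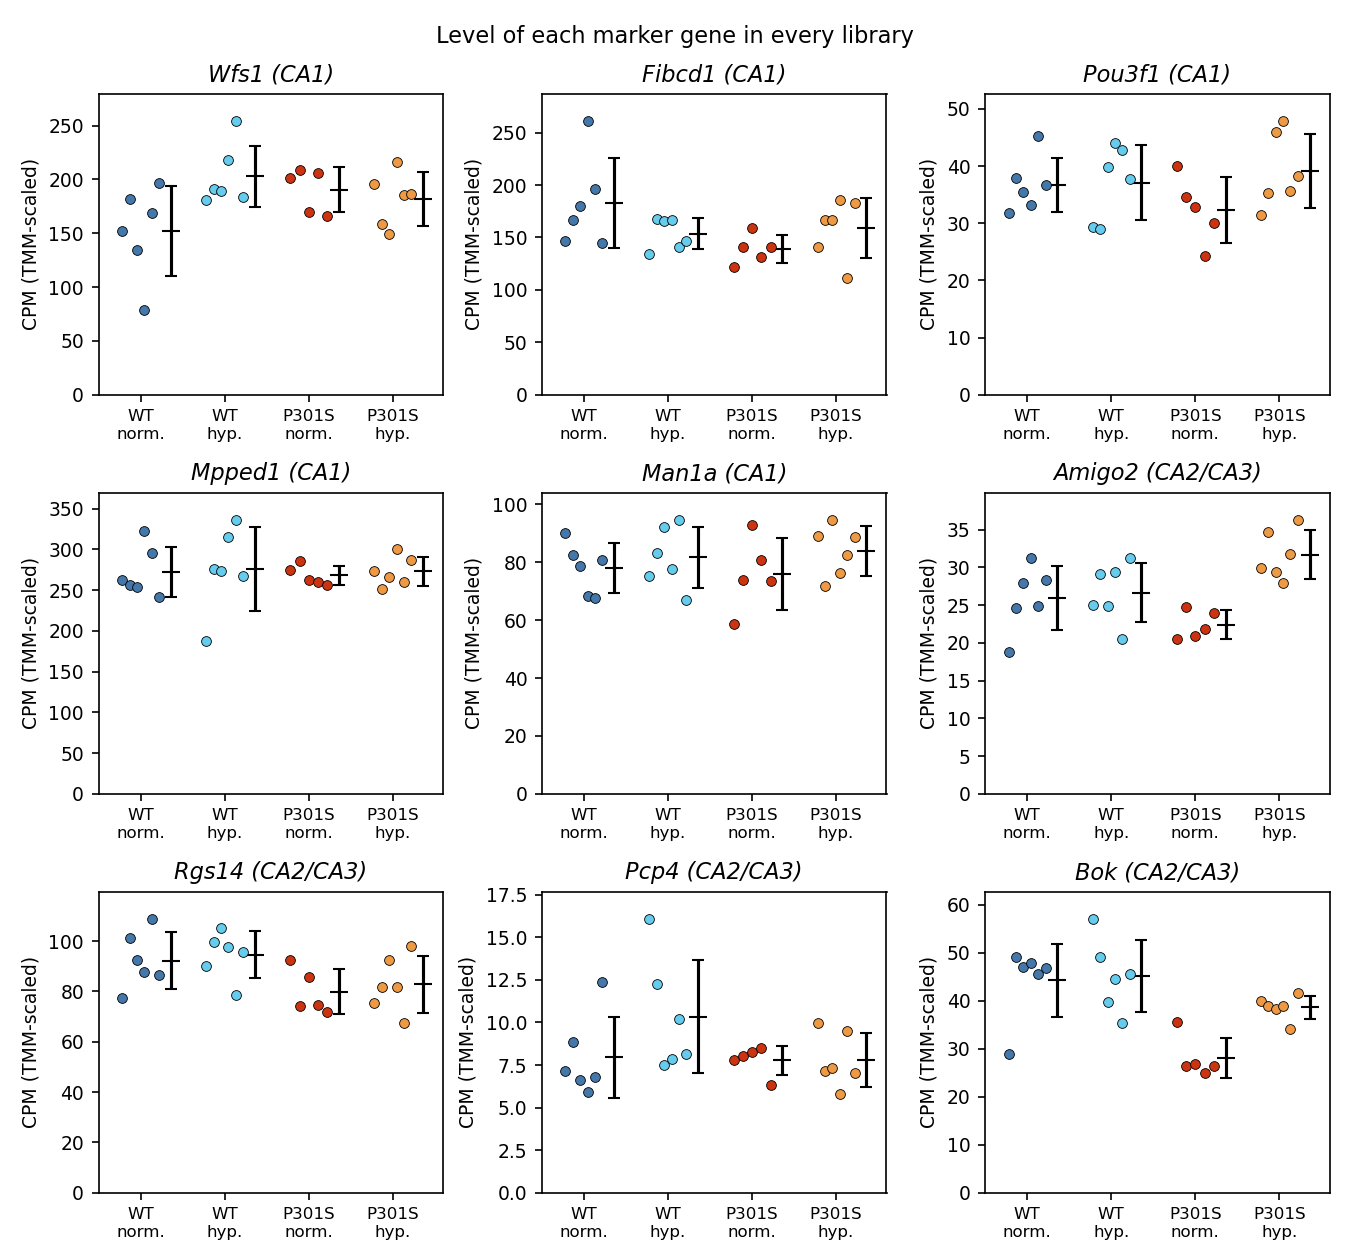
Level of each marker in every library, in TMM-scaled CPM on axes that start at 0, with 1 panel per gene and 1 point per library in replicate order (norm., normoxia; hyp., hypoxia). The bar beside each group is its mean with 1 SD; Bok was at 24.96 to 35.5 CPM in P301S normoxia and 34.1 to 41.5 CPM in P301S hypoxia.

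Under hypoxia, P301S and WT libraries were compared with each other, and 0 of the 9 markers passed the test, where 1.87% of all genes tested did. In edgeR 3 of the 9 had an unadjusted p under 0.05, beside 18.2% of all genes, namely Amigo2 (0.025), Pcp4 (0.0477) and Rgs14 (0.0488), and DESeq2 called none. Bok was at 35.4 to 57.1 CPM in WT hypoxia (median 45.1) and 34.1 to 41.5 CPM in P301S hypoxia (median 38.9), with a log2 fold change of -0.23 (SE 0.116, 95% interval -0.47 to 0.01, edgeR adjusted p = 0.305). Amigo2 had a log2 fold change of 0.25 (SE 0.104), with 6 of 6 P301S hypoxia libraries above the WT hypoxia mean. Rgs14 had one of -0.19 (SE 0.0922), close to its value in normoxia. Pcp4 had one of -0.40 (SE 0.189), on the small counts described above. It was -0.24 without WT hypoxia replicate 1, the highest library at 16.1 CPM, -0.23 with the striatum score as a covariate and -0.26 without the 6 libraries lowest in choroid plexus markers.

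Averaged over both conditions, P301S libraries had lower Bok and lower Rgs14 than WT. Bok had a log2 fold change of -0.44 (SE 0.0847, edgeR adjusted p = 0.00177), with 11 of 11 P301S libraries below the WT mean. Rgs14 was at 77.2 to 108.8 CPM in WT normoxia (median 90), 78.4 to 105.3 CPM in WT hypoxia (median 96.7), 92.5, 74.3, 85.9, 74.7 and 71.9 CPM in P301S normoxia, and 67.3 to 97.9 CPM in P301S hypoxia (median 81.7). Its groups overlapped widely and 10 of 11 P301S libraries lay below the WT mean. The log2 fold change of Rgs14 was -0.20 (SE 0.0669) with an edgeR adjusted p of 0.0492, which lies at the threshold. The adjusted p was 0.0504 with a second form of the same test, and the call was also lost in 6 other alternatives (0.0606 to 0.0945). It was lost as well without WT normoxia replicate 2, 3, 5 or 6, WT hypoxia replicate 1, 2, 3, 4 or 6, P301S normoxia replicate 2, 3, 4 or 5, or P301S hypoxia replicate 1, 2, 4 or 5, with adjusted p of 0.0502 to 0.0983. That makes 2 of 9 markers called, where 13.1% of all genes tested were.

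Intermittent hypoxia in WT mice changed 0 of the 9 markers by this test, where 0.0731% of all genes were called, and DESeq2 called none of the 9. In edgeR 1 of the 9 had an unadjusted p under 0.05, beside 11.6% of all genes. This was Wfs1, at 181 to 254.3 CPM in WT hypoxia (median 190.2) against 78.5 to 196.3 CPM in WT normoxia (median 160.4), with 6 of 6 hypoxia libraries above the normoxia mean. Its log2 fold change was 0.42 (SE 0.153, edgeR adjusted p = 0.275), or 0.28 without WT normoxia replicate 4 and 0.18 without the 6 libraries lowest in choroid plexus markers (edgeR adjusted p = 0.936). Fibcd1 had a log2 fold change of -0.25 (SE 0.129), which was -0.12 without WT normoxia replicate 4, the highest library, and -0.06 without the 6 libraries lowest in choroid plexus markers. Amigo2, Rgs14 and Bok had log2 fold changes of 0.04, 0.03 and 0.03, and their 95% intervals reached from -0.18 to 0.26, from -0.16 to 0.22 and from -0.21 to 0.27. Of the 6 libraries lowest in choroid plexus markers, 3 were WT hypoxia, 1 was WT normoxia and 2 were P301S hypoxia. The title numbers of WT libraries differ between normoxia and hypoxia, so they and the condition cannot be told apart.

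In P301S mice, hypoxia raised Amigo2 and none of the other 8 markers passed the test. Amigo2 was at 20.4, 24.7, 20.9, 21.8 and 24.0 CPM in P301S normoxia and at 27.9 to 36.3 CPM in P301S hypoxia (median 30.9). The 2 groups did not overlap, as in 1.01% of all genes tested that were higher. The log2 fold change was 0.50 (SE 0.110, 95% interval 0.27 to 0.73, edgeR adjusted p = 0.0448), and the exact permutation p, two-sided, was 0.00216, the smallest that 462 regroupings can give (0.0778 adjusted over the 36 tests). The 1 call of 9 stands beside 0.41% of all genes tested. The direction held in every alternative and with every library left out, but the call did not. It was lost with no filter on low counts (adjusted p = 0.0516) and with choroid plexus (0.0523), neocortex and subiculum (0.101), thalamus and habenula (0.0943) or striatum (0.0501) scores as a covariate. It was also lost without WT normoxia replicate 2, 3 or 6, WT hypoxia replicate 2 or 4, any of the 5 P301S normoxia libraries, or P301S hypoxia replicate 1, 2, 3, 5 or 6 (0.0507 to 0.144). The log2 fold change was 0.46 to 0.54 with a library left out.

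Several lists of other cell types leaned one way in the same comparison, with 0 genes called in the first 5 lists given here. Choroid plexus markers had negative log2 fold changes in 14 of 14 tested genes (median -0.76), oligodendrocyte markers in 10 of 10 (median -0.16), ependymal markers in 8 of 9 (median -0.36) and thalamus and habenula markers in 10 of 11 (median -0.36). Dentate granule markers had positive ones in 11 of 12 (median 0.27). Striatal markers were mixed, with 5 positive and 3 negative (median 0.03). GABAergic interneuron markers had positive log2 fold changes in 10 of 11 (median 0.08), and Npy was called higher (0.50). Mossy cell markers were split, with 3 positive and 3 negative (median -0.01), and Ociad2 was called higher (0.34). Of all genes tested, 0.41% were called. Summed thalamus and habenula markers were at 226.2 to 347.8 CPM in P301S normoxia (median 315.7) and 169.1 to 272.9 CPM in P301S hypoxia (median 215.9), and 9 striatal markers, 8 tested, at 68.9 to 81.6 CPM (median 75.3) and 54.1 to 77.9 CPM (median 67.8). With these scores as covariates the log2 fold change of Amigo2 was 0.50 and 0.50, and with the neocortex and subiculum score 0.43. Choroid plexus markers summed to 608.1 to 3425 CPM in P301S normoxia (median 853.9) and 71 to 2753 CPM in P301S hypoxia (median 1236), so the summed median was higher in hypoxia where each gene's fitted change was negative. The part of the dentate, oligodendrocyte and ependymal lists in the Amigo2 difference was not tested.

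Bok had nearly the same difference in P301S mice without being called. The P301S hypoxia libraries were at 34.1 to 41.5 CPM, and 4 of the 5 P301S normoxia libraries at 24.96 to 26.9 CPM, with replicate 1 at 35.5 CPM. The log2 fold change was 0.46 (SE 0.124, 95% interval 0.20 to 0.72, edgeR adjusted p = 0.0999), with 6 of 6 hypoxia libraries above the normoxia mean. Bok passed the threshold with DESeq2 (adjusted p = 0.0206), with the 2 groups fitted alone (edgeR, 0.0336) and with length and GC trends removed (edgeR, 0.0337). It also passed without WT normoxia replicate 1 (edgeR adjusted p = 0.0323) or P301S normoxia replicate 1 (edgeR adjusted p = 0.0327). Pou3f1 had a log2 fold change of 0.28 (SE 0.135, adjusted p = 0.366), and Mpped1, Rgs14 and Pcp4 ones of 0.03, 0.05 and 0.00. The 2 comparisons of P301S normoxia, with WT normoxia and with P301S hypoxia, share the same 5 libraries, so the low Bok values in P301S normoxia enter both.

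**Figure D3:**
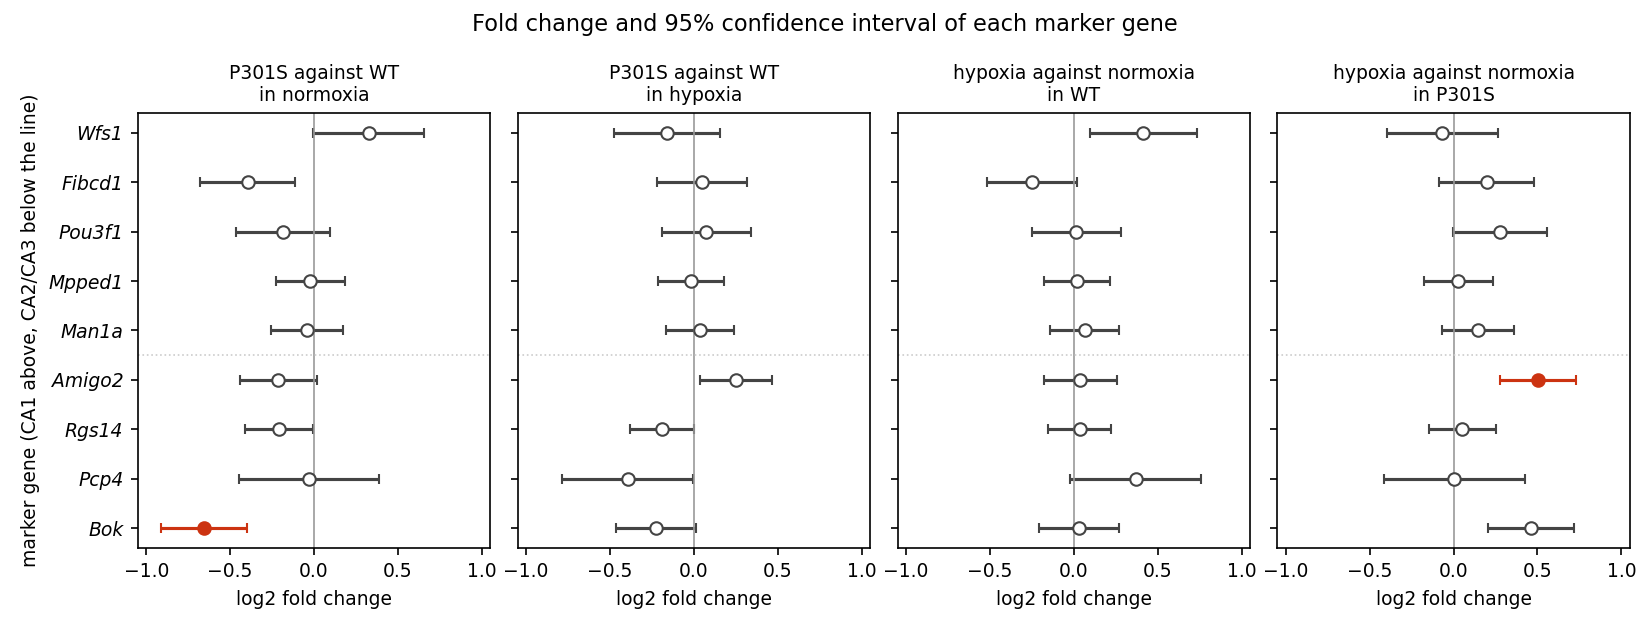
Log2 fold change (points) and 95% confidence interval (bars) of each marker in 4 comparisons, CA1 markers above the dotted line and CA2/CA3 markers below it. Filled points passed an adjusted p of 0.05: Bok at -0.66 in P301S against WT in normoxia and Amigo2 at 0.50 in hypoxia against normoxia in P301S.

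Whether hypoxia acted differently in the 2 genotypes was tested as an interaction, and 0 of the 9 markers passed, where 0.0394% of all genes tested did. In edgeR 4 of the 9 had an unadjusted p under 0.05, where 9.43% of all genes had one, and DESeq2 called none. Amigo2 had an interaction of 0.46 in log2 (SE 0.152, edgeR adjusted p = 0.345), Bok 0.43 (SE 0.169, edgeR adjusted p = 0.421), Fibcd1 0.45 (SE 0.188, edgeR adjusted p = 0.465) and Wfs1 -0.48 (SE 0.221, edgeR adjusted p = 0.499). The Amigo2 rise in P301S mice is therefore not shown to differ from the value in WT mice. The interaction of Fibcd1 was 0.22 with the thalamus and habenula score as a covariate, 0.25 with the neocortex and subiculum score and 0.24 without the 6 libraries lowest in choroid plexus markers, and that of Wfs1 was -0.28 with the neocortex and subiculum score. Averaged over both genotypes, hypoxia left 0 of 9 markers called, where 1.33% of all genes were. In edgeR 2 of the 9, Amigo2 and Bok, had an unadjusted p under 0.05, beside 16% of all genes. Amigo2 had a log2 fold change of 0.27 (SE 0.0760, edgeR adjusted p = 0.0739), and was called with DESeq2 (adjusted p = 0.0237), without the 6 libraries lowest in choroid plexus markers (edgeR adjusted p = 0.0406), without WT normoxia replicate 4 (edgeR, 0.0392) and without WT hypoxia replicate 5 (edgeR, 0.0433). Bok had a log2 fold change of 0.25 (SE 0.0846, edgeR adjusted p = 0.146).

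The 9 markers did not move as 1 block from library to library. Over the 23 libraries, deviations of log2 CPM from group means were compared for all 36 pairs by permutation with 100000 resamples, two-sided. The median Pearson r was 0.105 over the 10 pairs of CA1 markers, 0.245 over the 6 pairs of CA2 and CA3 markers and -0.106 over the 20 mixed pairs. The resampling shuffled the 23 deviations as if they were independent values. Removing 4 group means ties them, so these p-values are too small and do not decide whether any pair is related. By these p-values, after adjustment over the 36 pairs, 4 pairs fell under 0.05 by Pearson's r and none by Spearman's rho. Rgs14 and Bok moved together (r = 0.551, p = 0.00516, adjusted p = 0.0464; rho = 0.495, p = 0.0171, adjusted p = 0.119; r = 0.528 without the 2 libraries farthest from the median). The 2 farthest were chosen on a single gene of each pair, here Rgs14, and below Man1a, Fibcd1 and Mpped1. WT normoxia replicate 1, at -0.592 in Bok and -0.248 in Rgs14 from its group means, therefore stayed in. Its part in the relation of Rgs14 and Bok was not tested. Man1a and Bok moved in opposite directions (r = -0.554, p = 0.00514, adjusted p = 0.0464; rho = -0.5, p = 0.0162, adjusted p = 0.119; r = -0.489 without the 2 farthest). Pcp4 ran against Fibcd1 (r = -0.612, p = 0.0021, adjusted p = 0.0398; rho = -0.617, p = 0.0025, adjusted p = 0.09; r = -0.571 without the 2 farthest) and against Mpped1 (r = -0.602, p = 0.00221, adjusted p = 0.0398; rho = -0.465, p = 0.0265, adjusted p = 0.119; r = -0.533 without the 2 farthest).

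Some relations were weaker when 2 libraries were left out. Wfs1 against Fibcd1 had r = -0.538 (p = 0.0108, adjusted p = 0.077; rho = -0.293, p = 0.174, adjusted p = 0.489), and r = -0.133 without WT normoxia replicates 4 and 6. Without WT normoxia replicate 4 alone, r was -0.258. Amigo2 against Bok had r = 0.505 (p = 0.015, adjusted p = 0.077; rho = 0.287, p = 0.184, adjusted p = 0.489), and r = -0.02 without WT normoxia replicate 1 and WT hypoxia replicate 5, so the relation did not hold without them. Over 72 relations of the 9 markers with 8 scores of other tissues and cell types, Pcp4 with the thalamus and habenula score passed the adjustment and no other did (r = 0.72, p = 0.00013, adjusted p = 0.00936; rho = 0.755, p = 8e-05, adjusted p = 0.00576; r = 0.61 without the 2 farthest). The p-values in this paragraph came from the same resampling and are too small as well. Pcp4 is also known from thalamus and striatum.

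**Figure D4:**
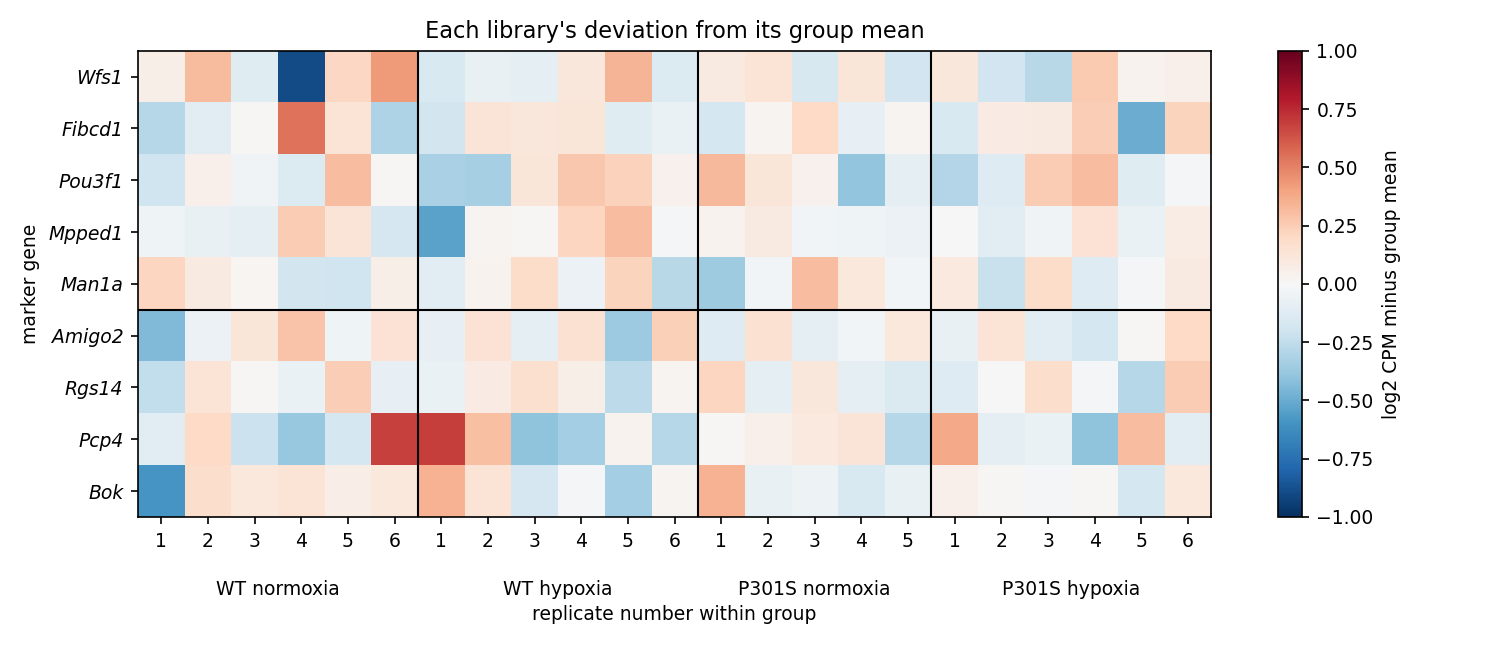
Deviation of each library (columns, by group and replicate) from its group mean for each marker (rows), in log2 CPM, red for higher and blue for lower. The darkest cell is Wfs1 in WT normoxia replicate 4, a library at 78.5 CPM; WT normoxia replicate 1 is low in Amigo2, Rgs14 and Bok.

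Among 13369 other genes with a mean of at least 1 CPM, those whose deviations were most like each marker's over the 23 libraries are given as a description. They were Rai2 for Wfs1 (r = 0.808), Tnfrsf21 for Fibcd1 (r = 0.91), Dkk3 for Pou3f1 (r = 0.87), Ctnnd2 for Mpped1 (r = 0.904) and Zfp422 for Man1a (r = 0.838). For the CA2 and CA3 markers they were Gstm4 for Amigo2 (r = 0.812), Gpc1 for Rgs14 (r = 0.881), Pbx3 for Pcp4 (r = 0.839) and Edf1 for Bok (r = 0.889). The second in likeness to Amigo2 was Vit (r = 0.766), which was itself on a list of CA2 markers. Dkk3, the gene most like the CA1 marker Pou3f1, was on the list of other CA3 markers, so likeness did not always follow the subfield. The libraries share depth and dissection, and no likeness was tested.

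Other subfield markers gave a background for these 9. In P301S against WT in normoxia, 0 of 9 other CA1 markers, 0 of 9 tested of 10 other CA2 markers and 0 of 11 tested of 12 other CA3 markers passed the test, with median log2 fold changes of 0.04, -0.05 and -0.02 beside 0.01 over all genes. The medians were -0.04 for the 5 CA1 genes and -0.21 for the 4 CA2 and CA3 genes. Of 10 general pyramidal markers none was called (median -0.13), and averaged over both conditions Itpka, a kinase of inositol phosphates, was called lower at -0.25 (edgeR adjusted p = 0.00929). In that average the list had 5 positive and 5 negative (median -0.01), and 13.1% of all genes were called. In normoxia, of 12 dentate granule markers only C1ql2, a synaptic organizer of mossy fibres, was called, lower at -0.79 (SE 0.171, edgeR adjusted p = 0.0115). Most of that list went the other way, with 9 positive and 3 negative (median 0.08), and 6.35% of all genes were called. In hypoxia against normoxia in P301S mice, 1 of the 9 other CA1 markers was called higher: Wipf3, a regulator of actin, by 0.49 (SE 0.111, edgeR adjusted p = 0.0485). Its list had 5 positive and 4 negative (median 0.08), beside a median of 0.00 over all genes. None of the other CA2 and CA3 markers was called, and 0.41% of all genes were. Averaged over both genotypes, Wipf3 at 0.33 (SE 0.0767) and Lefty1 at 0.35 (SE 0.0892), a secreted inhibitor of Nodal signals, were called higher in hypoxia, with edgeR adjusted p of 0.0345 and 0.0494. The 9 other CA1 markers were again split, with 5 positive and 4 negative (median 0.01), and 1.33% of all genes were called. The CA3 marker Nnat was listed at 0 in all libraries, since 100% of its body lies under other genes.

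**Figure D5:**
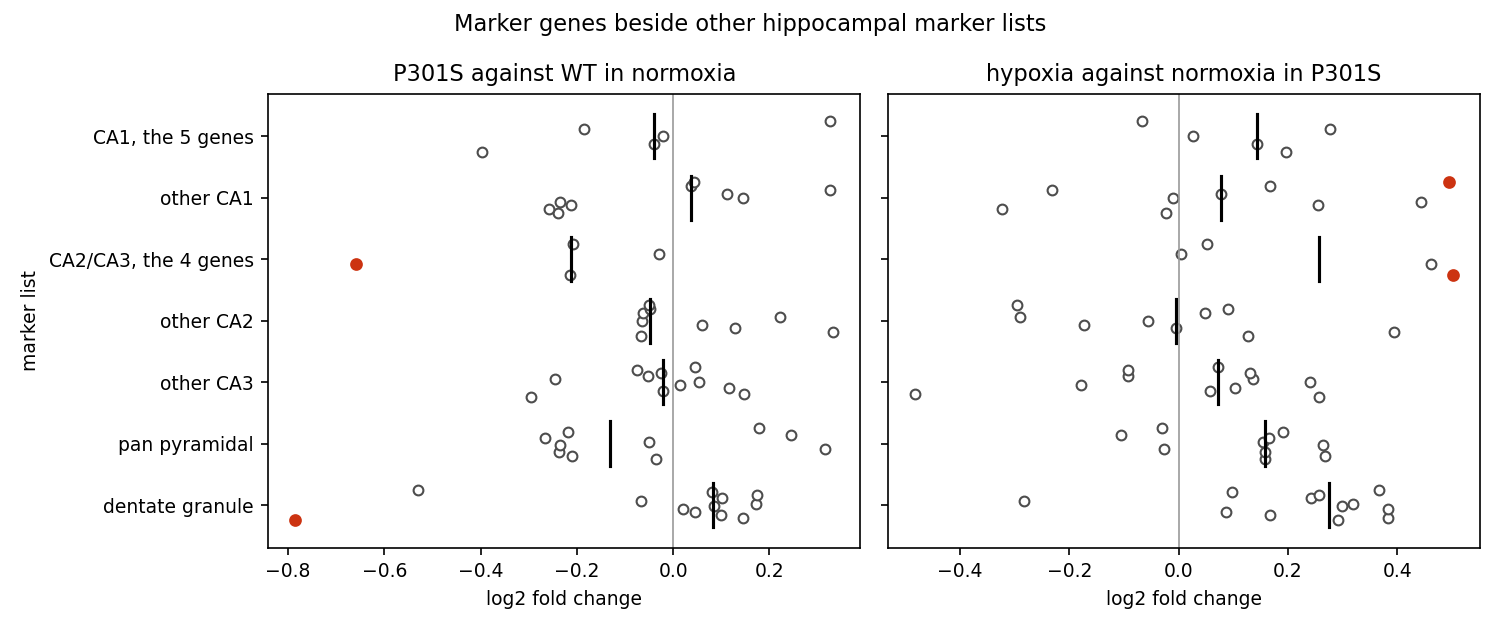
Log2 fold change of each gene (points) in 7 marker lists, for P301S against WT in normoxia (left) and hypoxia against normoxia in P301S mice (right), with filled points past an adjusted p of 0.05 and a black bar at the list's median. Bok at -0.66 and C1ql2 at -0.79 are the filled points on the left, and Amigo2 at 0.50 and Wipf3 at 0.49 those on the right.

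Genes of the same families or pathways as the markers were mostly uncalled, as were most of all genes tested. Of all genes, 6.35% were called in P301S against WT in normoxia and 13.1% averaged over both conditions. With hypoxia in P301S mice 0.41% were called. Of 11 tested BCL2 family genes none was called in normoxia, and averaged over both conditions 2 were lower in P301S mice: Bax at -0.16 (SE 0.0516, edgeR adjusted p = 0.0372), a pore former of the mitochondrial outer membrane, and Bad at -0.28 (SE 0.0877, edgeR adjusted p = 0.0363), which binds anti-apoptotic members. These 2 of 11 stand beside the 13.1% of all genes called in that comparison. Bak1 was listed at 0, since 100% of its body lies under another gene. Of 13 other RGS genes, Rgs6 was higher in P301S mice in normoxia at 0.50 (SE 0.146, edgeR adjusted p = 0.0438) and none was lower, 1 of 13 beside 6.35% of all genes. Of 5 tested of 11 leucine-rich repeat adhesion genes, Lrrtm4, a synaptic organizer, was higher in P301S mice in normoxia at 0.81 (SE 0.108, edgeR adjusted p = 0.000238). Amigo3, Flrt1, Flrt3, Lrrtm1, Lrrtm2 and Lrrtm3 were listed at 0, since 100% of their bodies lie under other genes. In P301S mice 0 of these 5 were called with hypoxia. Of 10 calmodulin regulators, Camk4 was higher at 0.33 and Calm3 lower at -0.22 in P301S mice in normoxia, with edgeR adjusted p of 0.024 and 0.0491. Of 5 tested POU factors, Pou2f2 was higher in P301S mice in normoxia at 0.34 (edgeR adjusted p = 0.00417) and lower with hypoxia in P301S mice at -0.43 (edgeR adjusted p = 0.00552). Of 9 tested N-glycan processing genes, none was called in normoxia, and averaged over both conditions Mogs, the glucosidase that begins N-glycan trimming, was lower at -0.17 (edgeR adjusted p = 0.0316).

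Wfs1, an ER protein, is set here beside the ER chaperone genes. Of 23 ER chaperone and unfolded protein response genes, 12 were lower and none higher in P301S mice in normoxia (median log2 fold change -0.22), where 6.35% of all genes were called. The 3 with the lowest p were Sdf2l1 at -0.86, Xbp1 at -0.44 and Calr at -0.34, with edgeR adjusted p of 0.00509, 0.00509 and 0.00554. Hspa5, the main chaperone of the ER lumen, was at 289.5 ± 40.4 CPM (SD, n = 6) in WT normoxia, 223.4 ± 13 CPM (SD, n = 6) in WT hypoxia, 212.8 ± 27.2 CPM (SD, n = 5) in P301S normoxia and 288 ± 51.6 CPM (SD, n = 6) in P301S hypoxia. Its interaction of genotype and hypoxia was 0.81 (SE 0.150, edgeR adjusted p = 0.0435), and Calr, a lectin chaperone, had one of 0.53 (SE 0.0917, edgeR adjusted p = 0.0407), where Wfs1 had -0.48 uncalled. The difference between Wfs1 and these genes was not tested.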

How the data were processed

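Gene counts were deposited by the authors as 1 table per library: raw read-pair counts over whole gene bodies from featureCounts 1.6.2 with Ensembl release 90, paired and without strand, per the file headers. The libraries were stranded, per the labels' protocols. The submitters' processing notes name HISAT2, mm10 and DESeq2 1.6.3. Reads on 2 genes were not counted, which lowers genes that overlap others. Replicates were numbered in accession order.

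Genes were kept by filterByExpr with a minimum count of 10, scaled by TMM and tested with edgeR 4.0.16 (R 4.3.3) in 1 quasi-likelihood fit of 4 group means over 23 libraries, with 7 contrasts, Benjamini-Hochberg adjustment over 17788 genes and a threshold of 0.05. Standard errors come from the F statistic. DESeq2 1.42.0 was an alternative. The procedure was tested on simulated data, and the share of changed genes that it had to recover was lowered after a first run fell just short of it. Coordinates are those of the files (GRCm38). Promoter sequences are RefSeq's.

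The markers and gene lists were chosen with earlier results of these data known. The text names all 9 markers, the genes most like each marker, and, for lists set beside a result, the called genes (at most 3 of a list). Calls of lists in other comparisons are not all named. The fit was first run with dispersions from estimateDisp. After the markers' values had been seen it was changed to the dispersions that glmQLFit estimates itself, to match the earlier counts of called genes. That change moved Rgs14, averaged over both conditions, from an adjusted p of 0.0504 to 0.0492 and moved no other marker across the threshold. The exact permutation tests were added after seeing the data.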

Additional observations from a re-analysis of the deposited data

Results flagged for a closer look

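Bok in WT normoxia replicate 1 was at 28.9 CPM, far below the next library of its group at 45.6 CPM and the highest at 49.2 CPM (gap over range 0.823). Bok in P301S normoxia replicate 1 was at 35.5 CPM, far above the next at 26.9 CPM and the lowest at 24.96 CPM (gap over range 0.813). Each lies toward the other genotype's values, and these 2 libraries account for the overlap of the groups. They were the 2 outlying values among 36 sets of a marker and a group, of which chance gives about 1 in 20. The fall of Bok in P301S normoxia stayed called without either library.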

How the results depend on the processing

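No marker's log2 fold change that passed the test, in the main or an alternative analysis, turned its direction in any of the 15 alternatives (14 for the averaged comparisons and the interaction, which use every group) or the 23 analyses with 1 library left out. No paired analysis was possible because the labels give no replicate numbers shared between groups. The number of markers called in P301S against WT in normoxia went from 1 to 2 with DESeq2, and was 1 to 2 with a library left out. For hypoxia against normoxia in P301S mice it went from 1 to 2 with DESeq2, with only the groups compared and with length and GC trends removed, and to 0 with no filter on low counts and with the choroid plexus, neocortex and subiculum, thalamus and habenula or striatum score as a covariate, and it was 0 to 2 with a library left out. Averaged over both conditions, P301S against WT went from 2 to 1 with no filter, with length and GC trends removed, with the neocortex and subiculum, thalamus and habenula or striatum score, without the 6 libraries lowest in choroid plexus markers and with dispersions from estimateDisp, and was 1 to 2 with a library left out. Averaged over both genotypes, hypoxia against normoxia went from 0 to 1 with DESeq2, with length and GC trends removed and without those 6 libraries, and was 0 to 1 with a library left out. The causes were not tested. Striatum as a covariate and the estimateDisp dispersions were chosen after seeing the data. Counts over all genes moved more: 1130 genes called in P301S against WT in normoxia against 368 to 1617 over the alternatives, 333 against 16 to 847 in hypoxia, 13 against 0 to 153 for hypoxia in WT and 73 against 31 to 343 in P301S mice. The interaction count of 7 genes was 0 to 49. With 1 library left out these counts were 365 to 2069, 91 to 618, 2 to 29, 7 to 154 and 0 to 13, so the shares of all genes called move as well. The 138 to 311 counts per library limit Pcp4, and 465 to 848 limit Amigo2.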
